A study of Mus musculus with 15 samples.

Results

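The mitochondrial transcripts in HITS-CLIP of Mbnl3 were described here through every sequenced tag that the deposited files place on the mouse mitochondrial chromosome. HITS-CLIP crosslinks RNA to protein with ultraviolet light, precipitates the protein with an antibody and sequences the attached RNA as short tags. A tag was counted as a distinct molecule, defined by its position, its strand and a barcode of 5 bases. The set held 2156 mitochondrial tags of 916978 tags in all, 357 from forelimb and 1799 from C2C12 cells. They were assigned by strand and midpoint to the 37 genes of the mitochondrial genome: 2 ribosomal RNAs, 13 protein-coding genes and 22 transfer RNAs.

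The study measured Mbnl3, a muscleblind protein that binds RNA and takes part in alternative splicing, in embryonic forelimb and in a muscle cell line. Forelimbs came from BL6 mouse embryos at embryonic day 15, either wild type (WT) or homozygous for the Mbnl3 ΔE2 allele, which the sample titles call a knockout. Each forelimb replicate pooled 4 forelimbs of 2 embryos, and the growth notes name female mice. C2C12, an established mouse myoblast line of WT genotype, was grown in DMEM with 20% serum, and its 3 libraries were combined by the authors without a replicate label. All groups were precipitated with the same antibody, Mb3/7, after the lysates were denatured. RNase A was used at a high and a low concentration, and which library got which is not stated. The deposited designations of WT and ΔE2 libraries also differ by a number that no label explains, so other differences between the sets cannot be told apart from genotype. Tags labelled ΔE2 are reported as recovered. Direct binding of Mbnl3 to mitochondrial RNA was not tested in any group. The RNA-seq part of the series was used as a table of 98 cassette exon events, of which 0 lie on the mitochondrial chromosome. Such a table does not give the amount of each mitochondrial RNA, which was therefore not measured here. More cells, more mitochondria per cell and more RNA per mitochondrion cannot be told apart in these tag counts.

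The mitochondrial genome is a small circle that is transcribed from each strand into long precursor RNAs. Transfer RNAs lie between most of its other genes, and cutting at the transfer RNAs releases the ribosomal and messenger RNAs. The 12S and 16S ribosomal RNAs, encoded by mt-Rnr1 and mt-Rnr2 at the start of the plus-strand transcript, form the core of the mitochondrial ribosome. The messenger RNAs encode membrane subunits of the respiratory chain complexes and of ATP synthase. Muscle and heart are known for a high content of mitochondria. Muscleblind proteins are known mainly from the nucleus and cytoplasm.

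The forelimb libraries were not fully independent. The WT libraries held 35413, 74123 and 124309 tags of all kinds, of which 33, 55 and 90 were mitochondrial. ΔE2 replicate 1 held 86 mitochondrial tags of 67279. ΔE2 replicates 2 and 3 shared 48 mitochondrial molecules, 96.0% and 52.7% of theirs, and were therefore joined as 1 library with 93 mitochondrial tags of 65730. This left 3 WT and 2 ΔE2 libraries. Molecules were shared across genotypes too. Of the 271 distinct mitochondrial molecules in forelimb, 62 occurred in more than 1 of these 5 libraries and 30 in both genotypes, which is 22.6% of the WT and 17.9% of the ΔE2 molecules. WT replicate 3 and ΔE2 replicate 1 shared 24 of them, 26.7% and 27.9% of their mitochondrial tags, beside 16.3% and 30.1% of their tags on all chromosomes. The shares, the tests between genotypes and the positions along ribosomal RNA are therefore also given with shared molecules left out, which kept 13, 23 and 42 mitochondrial tags in WT and 52 and 79 in ΔE2. This removal took a larger part of the mitochondrial tags of each WT library than of either ΔE2 library. Molecules shared only by ΔE2 replicates 2 and 3 stayed in, since these were joined first. Those shared among WT libraries were taken out. Of the barcodes of forelimb mitochondrial tags, 122 distinct ones in all, 100% ended in G. The last of the 5 bases therefore did not tell these molecules apart. The replicates are labelled as biological.

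Mitochondrial tags were a small share of every library, and the share was higher in both ΔE2 libraries than in any WT library. Among WT libraries it was 0.0932%, 0.0742% and 0.0724% of tags, and among ΔE2 libraries 0.128% and 0.141%. WT averaged 0.0799% ± 0.0115 (SD, n = 3) and ΔE2 0.135% ± 0.00966 (SD, n = 2). The two-sided exact permutation p for this difference of 0.0547 percentage points was 0.1 (0.25 adjusted over the 5 shares tested), and 0.1 is the smallest p that the 10 splits of 3 against 2 libraries allow. The difference was 0.0721 percentage points with shared molecules left out, and the groups again did not overlap. The part of the unequal removal from WT and ΔE2 libraries in this value was not tested. In the combined C2C12 set the share was 0.327% (95% Wilson interval 0.312 to 0.342). Intervals and limits from counts cover counting error only.

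**Figure D1:**
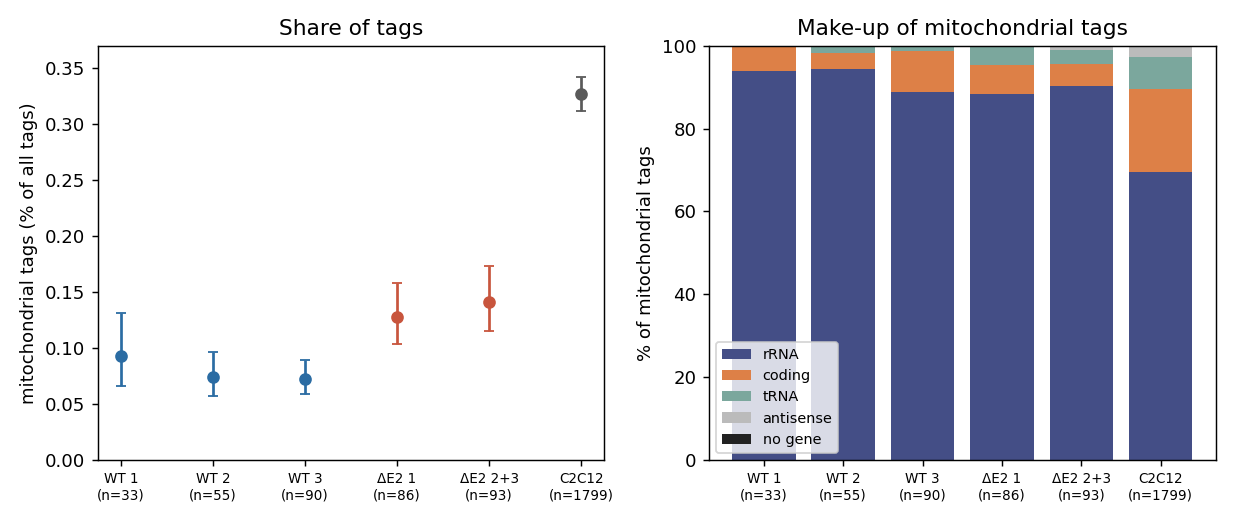
Left, mitochondrial tags as a percentage of all tags in the 3 WT and 2 ΔE2 forelimb libraries and the combined C2C12 set, with 95% Wilson intervals as bars; n is the number of mitochondrial tags. Right, those tags split into sense tags of ribosomal RNA, coding genes and transfer RNA, antisense tags and tags in no gene: ribosomal RNA filled 88.4% to 94.5% of each forelimb library and 69.4% of the C2C12 set.

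Ribosomal RNA gave nearly all mitochondrial tags in forelimb. WT libraries had ribosomal shares of 93.9%, 94.5% and 88.9%, and ΔE2 libraries 88.4% and 90.3%. These values overlapped between genotypes, at 92.5% ± 3.11 (SD, n = 3) and 89.3% ± 1.38 (SD, n = 2), and the two-sided exact permutation test gave p = 0.3 (adjusted 0.5). Sense tags of coding genes averaged 6.57% ± 3.21 for WT (SD, n = 3), and 6.18% ± 1.13 for ΔE2 (SD, n = 2), from 2, 2 and 9 WT tags and 6 and 5 ΔE2 tags. The exact permutation p for coding genes was 0.9, and the sign of the difference turned in 3 of 13 alternatives. With shared molecules left out, ΔE2 lay at -3.33 percentage points from WT in ribosomal share and at -3.05 in coding share, with exact permutation p-values of 0.5 and 0.6. In C2C12 cells the ribosomal share was lower, 69.4% (95% Wilson interval 67.3 to 71.5), coding genes gave 20.1% (18.3 to 22.04) and transfer RNAs 7.78% (6.63 to 9.11).

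Tag length differed between these sources. Mitochondrial tags of C2C12 cells were 26 to 30 nt long with a median of 30 nt, and those of forelimb 21 to 38 nt with a median of 35 nt. Limited to 26 to 30 nt, the WT libraries kept 7, 10 and 13 mitochondrial tags and the ΔE2 libraries 5 and 12. In these few tags the mean ribosomal share was 79.5% in WT and 90.0% in ΔE2, and the mean coding share was 20.5% in WT and 0% in ΔE2. The part of tag length in the difference between forelimb and C2C12 was not tested beyond these values.

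Within ribosomal RNA, mt-Rnr2 gave more tags than mt-Rnr1 in all 6 sets, also per length. The 12S gene mt-Rnr1, 955 nt long, had 5, 12 and 14 tags in WT, 18 and 14 in ΔE2 and 384 in C2C12. The 16S gene mt-Rnr2, 1582 nt long, had 26, 40 and 66 tags in WT, 58 and 70 in ΔE2 and 865 in C2C12. Tags per kb of mt-Rnr2 over tags per kb of mt-Rnr1 came to 3.14, 2.01 and 2.85 in WT, 1.95 and 3.02 in ΔE2, and 1.36 in C2C12. The C2C12 ratio lay below each of the 5 forelimb ratios, and the genotypes overlapped. Over the forelimb libraries together it was 2.20 with shared molecules left out. As a share of ribosomal tags, mt-Rnr1 averaged 18.9% ± 3.68 for WT (SD, n = 3), and 20.2% ± 4.96 for ΔE2 (SD, n = 2). The exact permutation test gave p = 0.7 (adjusted 0.875), with a sign that turned in 4 of 13 alternatives. The difference of 1.27 percentage points became 5.01 with shared molecules left out (exact permutation p = 0.5). In C2C12 it was 30.7% (95% Wilson interval 28.2 to 33.4).

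Both ribosomal RNAs were higher in ΔE2 than in WT after scaling by TMM, a method of edgeR that sets the typical tested feature to no change. The test ran on 276 features with enough tags, made of mitochondrial genes by strand and of nuclear clusters of overlapping tags. Of these features, 23.2% were called at an adjusted p at or under 0.05, 15.9% higher in ΔE2. WT and ΔE2 libraries were without overlap for 55.8% of features, 27.2% with ΔE2 higher. The ribosomal RNAs were the 2 mitochondrial features past the filter on low counts. All other mitochondrial genes had too few forelimb tags to be tested.

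CPM are counts scaled to 1000000 tags in tested features. On that scale mt-Rnr1 stood at 930, 1214 and 887 in WT, and at 2560 and 2524 in ΔE2. These do not overlap, with means of 1010 ± 177 (SD, n = 3) and 2542 ± 25.2 (SD, n = 2). The log2 fold of ΔE2 over WT was 1.33 ± 0.34 (standard error; edgeR quasi-likelihood test, Benjamini-Hochberg adjusted p = 0.0236). For mt-Rnr2 the CPM values were 4838, 4046 and 4184 in WT and 8247 and 12620 in ΔE2, again without overlap. Means of mt-Rnr2 were 4356 ± 423 CPM (SD, n = 3) and 10434 ± 3092 (SD, n = 2), and its log2 fold was 1.26 ± 0.28 (standard error; edgeR adjusted p = 0.0138).

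These calls depended on the scaling and on single libraries. Scaled to all tags of each library, the log2 folds were 0.83 for mt-Rnr1 (edgeR adjusted p = 0.118) and 0.72 for mt-Rnr2 (edgeR adjusted p = 0.0746). That scaling put the median log2 fold of all tested features at -0.57, against -0.08 with TMM, and changed their calls from 44 higher and 20 lower in ΔE2 to 22 higher and 58 lower. Scaled to tags in tested features, with a median of -0.47, the values were 0.93 for mt-Rnr1 (edgeR adjusted p = 0.0736) and 0.86 for mt-Rnr2 (edgeR adjusted p = 0.0458). Without WT replicate 2 neither was called (edgeR adjusted p = 0.0776 for each), nor without WT replicate 3 (edgeR adjusted p = 0.103 and 0.0566). Calls over all tested features fell in these fits too, from 64 of 276 to 16 of 246 and 22 of 239. The call of mt-Rnr1 also ended without ΔE2 replicate 1 (edgeR adjusted p = 0.0589) and without ΔE2 replicate 3 (0.0577). With shared molecules left out, mt-Rnr2 had a log2 fold of 1.75 (edgeR adjusted p = 0.000156) and mt-Rnr1 had too few tags to be tested. That removal took more of the WT than of the ΔE2 mitochondrial tags, and its part in the larger fold was not tested. Each fit gave a positive log2 fold to every ribosomal RNA gene it tested.

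**Figure D2:**
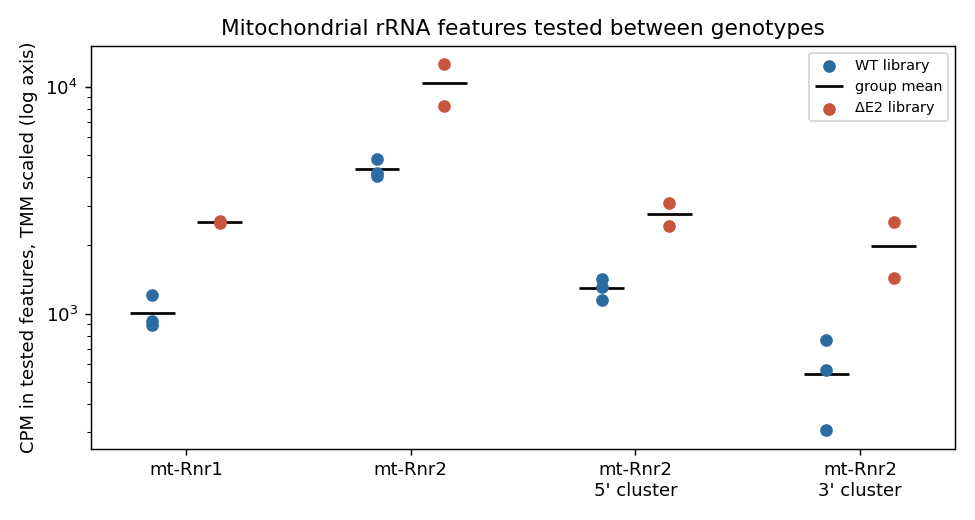
CPM in tested features after TMM scaling, on a log axis, for mt-Rnr1, mt-Rnr2 and the 2 tested clusters at the 5′ and 3′ ends of mt-Rnr2; points are the 3 WT and 2 ΔE2 libraries and lines the group means. At all 4 features both ΔE2 points lie above the 3 WT points.

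The fullest forelimb clusters lay in the 16S RNA. Overlapping tags formed 53 mitochondrial clusters in forelimb, and the 5 with the most tags all lay on the plus strand in mt-Rnr2. Positions are given on the mitochondrial chromosome (MT) of the mm9 build, counted from 1. The fullest cluster, MT 1094 to 1353, opened at the first base of the gene and held 73 tags, 20.4% of all forelimb mitochondrial tags. It had 7, 14 and 18 tags in WT and 17 and 17 in ΔE2. The cluster at MT 2628 to 2677, over the 3′ end of mt-Rnr2 and into the neighbouring leucine transfer RNA gene, was 50 nt wide and held 42 tags, 3, 3 and 12 in WT and 10 and 14 in ΔE2. Between them, MT 1365 to 1553 held 45 tags, MT 1829 to 1932 held 23 and MT 2316 to 2447 held 21. Tag numbers at MT 1829 to 1932 were 3, 8 and 5 in WT and 5 and 2 in ΔE2, lowest in the joined ΔE2 library.

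The clusters at the ends of mt-Rnr2 were the 2 mitochondrial clusters of 276 tested, and both were called higher in ΔE2, where 22.5% of the tested clusters were called and 15.9% were called higher. At MT 1094 to 1353 the values were 1308, 1424 and 1146 CPM in WT and 2431 and 3082 in ΔE2. This log2 fold was 1.09 ± 0.33 (standard error; edgeR adjusted p = 0.0382). At MT 2628 to 2677 they were 561, 305 and 764 CPM in WT and 1430 and 2538 in ΔE2, with a log2 fold of 1.73 ± 0.51 (standard error; edgeR adjusted p = 0.0374). Neither pair of groups overlapped, as was so for 55.8% of the tested clusters, 27.2% with ΔE2 higher. Scaled to all tags, the log2 folds were 0.58 (edgeR adjusted p = 0.222) and 1.23 (edgeR adjusted p = 0.0953), so that neither was called. Without WT replicate 2 the edgeR adjusted p of the 5′ cluster was 0.120 and without WT replicate 3 it was 0.166, and the 3′ cluster had too few tags to be tested in those fits. Calls over all tested clusters fell in those fits from 62 of 276 to 16 of 245 and 22 of 238. Without ΔE2 replicate 3 the 5′ cluster was not called either (edgeR adjusted p = 0.0883). With shared molecules left out, neither cluster had enough tags.

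In C2C12 cells the tags spread along both ribosomal RNAs. They covered 99.4% of the bases of mt-Rnr1 and 98.7% of mt-Rnr2, whereas the fewer forelimb tags together covered 62.6% and 77.4%. Of forelimb mt-Rnr2 tags, 20.8% (95% Wilson interval 16.3 to 26.1) had their midpoint in the first of 10 equal parts of the gene and 20.0% (15.6 to 25.3) in the last. The same parts held 10.98% (95% Wilson interval 9.07 to 13.2) and 10.4% (8.54 to 12.6) of C2C12 mt-Rnr2 tags. The fifth part was the fullest in C2C12, with 17.5%. The third part held 15.0% of the forelimb tags. With shared molecules left out, the first part held 16.9% (95% Wilson interval 11.6 to 23.9), the third 17.6% (12.2 to 24.7) and the last 16.2% (11.04 to 23.1) of 142 forelimb mt-Rnr2 molecules. The interval of the first and that of the last then overlapped those of C2C12. In the forelimb libraries one by one, the first part held 5 of 26, 10 of 40 and 16 of 66 tags in WT and 14 of 58 and 9 of 70 in ΔE2. The last part held 5, 3 and 16 tags in WT and 11 and 17 in ΔE2. ΔE2 replicates 2 and 3 joined were the lowest for the first part and had more tags, 12, in the third part, and WT replicate 2 was the lowest for the last, with 3 of 40. Over 26 windows of 100 nt along both genes, the summed profiles of WT and ΔE2 correlated at 0.78 (Pearson), those of WT and C2C12 at 0.33 and those of ΔE2 and C2C12 at 0.36. These values were 0.76, 0.28 and 0.35 with shared molecules left out. The genotypes share tag length, and windows are not replicates, so these are a description.

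The outer ends of the tags differed as well. The most common 5′ end of forelimb mt-Rnr2 tags was the first base of the gene, with 3, 2 and 5 tags in WT and 3 and 2 in ΔE2, or 15 of 260 tags (5.77%, 95% Wilson interval 3.53 to 9.30). Counted once each, 10 of 190 distinct molecules began there (5.26%, 2.88 to 9.42), and 6 of 142 with shared molecules left out (4.23%, 1.95 to 8.91). No other start held more tags in any forelimb library but the joined ΔE2 library, where 3 tags began 1545 nt further on. In WT replicate 2 the first base was tied with other starts. The 40 tags there had 34 distinct starts and at most 2 tags at any of them. In C2C12, 0 of 865 mt-Rnr2 tags began there, which allows up to 0.347% (3 counts). Tags that ran past the last base of mt-Rnr2 numbered 34 in C2C12, by up to 13 nt, and 4 in forelimb, by up to 2 nt. In mt-Rnr1, 1 of 63 forelimb tags and 0 of 384 C2C12 tags began at the first base. No forelimb tag had its midpoint in the last of the 10 parts of mt-Rnr1, where C2C12 had 24 of 384. The part of trimming before alignment in these ends was not tested.

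**Figure D3:**
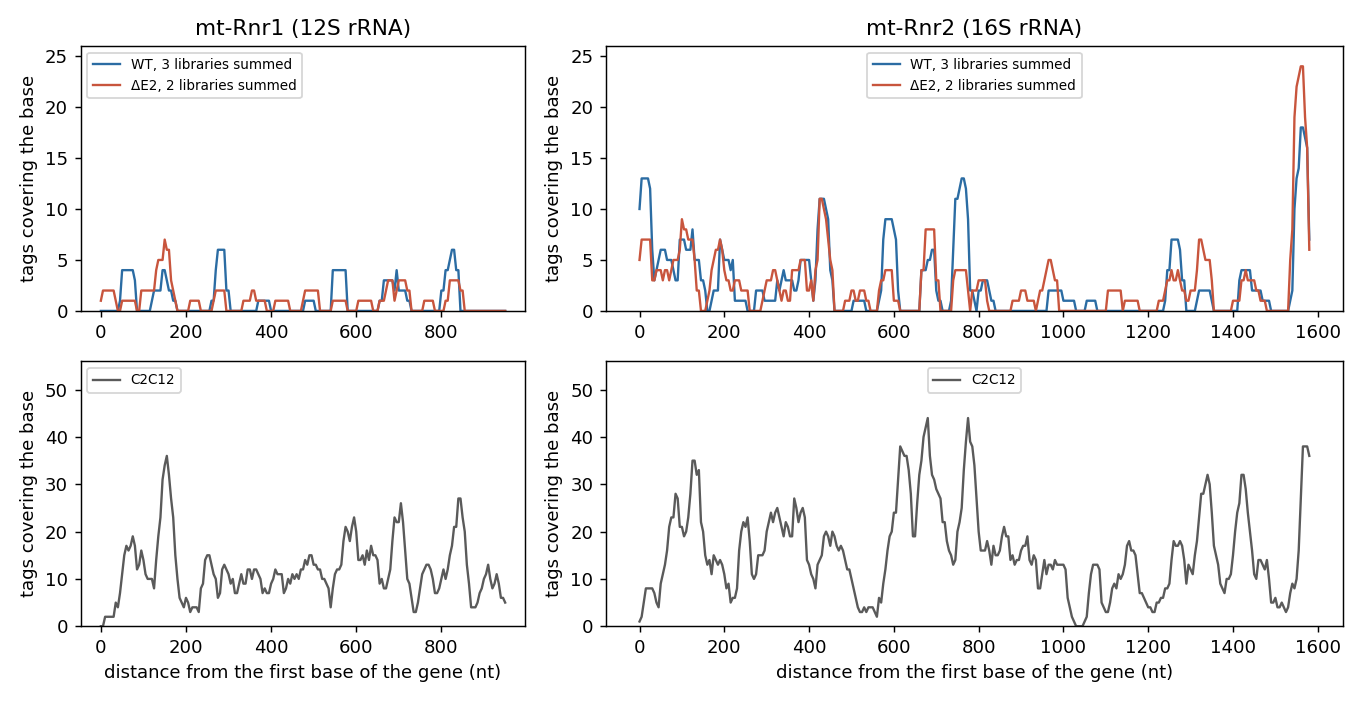
Number of tags that cover each position of mt-Rnr1 (left) and mt-Rnr2 (right), against distance in nt from the first base of the gene, for the summed WT and ΔE2 forelimb libraries (top) and the C2C12 set (bottom). Forelimb tags pile up within 50 nt of the 3′ end of mt-Rnr2, and C2C12 tags, which cover nearly the whole of both genes, also rise there, to 38 tags; the vertical scales of the rows differ.

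C2C12 clusters were wide because of this cover. Of 169 clusters, the fullest ran from MT 1031 to 2123 on the plus strand with 631 tags, 35.1% of C2C12 mitochondrial tags, across the valine transfer RNA gene and most of mt-Rnr2. The next lay at MT 76 to 1025 with 384 tags and at MT 2144 to 2688 with 252, so that these 3 spanned nearly all of the ribosomal RNAs. They were followed by MT 3851 to 3913 with 23 tags in the methionine transfer RNA gene mt-Tm, and MT 6031 to 6326 with 19 in mt-Co1.

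All 13 coding genes had sense tags in C2C12 cells, from 362 coding tags, and 6 of 13 had one in forelimb, from 24. Complex IV, cytochrome c oxidase, was the fullest group in C2C12, with 173 tags from 3 genes or 57.4 per kb. Its catalytic subunit gene mt-Co1 had 99 tags, 64.1 per kb (exact 95% Poisson interval 52.1 to 78.0). The copper-binding subunit gene mt-Co2 had 51 tags, 74.6 per kb (55.5 to 98.0), and mt-Co3 had 23, or 29.3 per kb. The intervals of mt-Co1 and mt-Co2 overlap, and both lie above the value of mt-Co3. In forelimb, mt-Co1 had 1, 0 and 3 tags in WT and 1 and 0 in ΔE2, and mt-Co2 and mt-Co3 had 0.

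Complex I, the NADH dehydrogenase, had 120 C2C12 tags from 7 genes, or 18.9 per kb. Per kb, mt-Nd1 was highest with 29.3 (28 tags), followed by mt-Nd2 with 23.1 (24 tags). Lower were mt-Nd4 with 17.4 (24 tags), mt-Nd5 with 16.4 (30 tags), mt-Nd6 and mt-Nd4l with 13.5 each (7 and 4 tags) and mt-Nd3 with 8.62 (3 tags). Of these genes, mt-Nd1, mt-Nd2, mt-Nd4 and mt-Nd5 had forelimb tags, 12 in all. There were 5 of them in mt-Nd4, with 0, 0 and 2 in WT and 1 and 2 in ΔE2. The other 3 genes of the 7, mt-Nd3, mt-Nd4l and mt-Nd6, had 0 in forelimb.

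Complex III has a single mitochondrial gene, mt-Cytb for cytochrome b, with 42 tags or 36.7 per kb in C2C12. It was the coding gene with the most forelimb tags, 7 in all, with 0, 1 and 2 in WT and 2 and 2 in ΔE2. The next were mt-Co1 and mt-Nd4 with 5 each, and part of each of these 2 genes lies in the tag-free stretch described below. For ATP synthase, the C2C12 set had 24 tags (35.2 per kb) in mt-Atp6, a subunit of its proton channel, and 3 tags (14.7 per kb) in mt-Atp8, with 0 of each in forelimb. The reading frame of mt-Atp8 overlaps that of mt-Atp6, and mt-Nd4l overlaps mt-Nd4, so tags at these junctions could belong to either gene. Against the ribosomal RNAs, with 402 tags per kb for mt-Rnr1 and 547 for mt-Rnr2, all 13 coding genes were lower in C2C12.

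**Figure D4:**
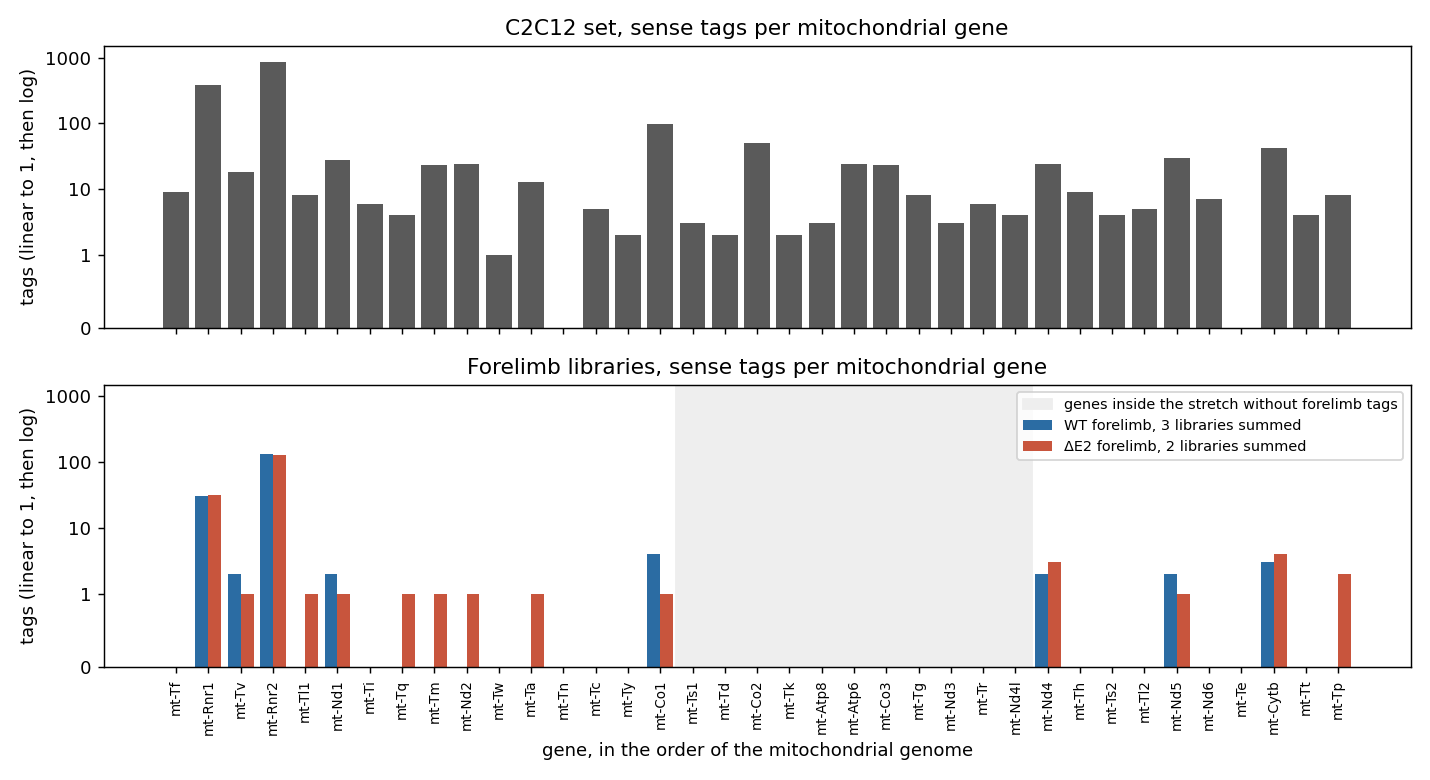
Sense tags per mitochondrial gene in genome order for the C2C12 set (top) and the summed WT and ΔE2 forelimb libraries (bottom), with an axis that is linear to 1 and logarithmic above. The 11 genes in the grey band hold 0 forelimb tags, while C2C12 tags are spread over 35 of 37 genes.

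One long stretch of the genome had no forelimb tag on either strand. It ran from MT 6322 to 11082, 4761 nt, and the next longest was 872 nt. It held 11 whole genes, 6 of them coding (mt-Co2, mt-Atp8, mt-Atp6, mt-Co3, mt-Nd3 and mt-Nd4l) and 5 for transfer RNAs. The 3′ part of mt-Co1 and the 5′ part of mt-Nd4 lay in it too. C2C12 had 185 tags in the stretch, 10.3% of its mitochondrial tags (95% Wilson interval 8.96 to 11.8) and 33.6% of its 550 tags outside ribosomal RNA. Forelimb had 34 tags outside ribosomal RNA in all, from 31 distinct molecules, and the stretch was chosen because it was empty, so no test was made of it. With the stretch left out, the ribosomal share in C2C12 was 77.4% (75.3 to 79.4), below the lowest forelimb library with its tags of all lengths. In the few forelimb tags of 26 to 30 nt, the mean ribosomal share was 79.5% in WT and 90.0% in ΔE2. The gene table lists 1 nuclear pseudogene, Gm10925 on chromosome 1, under a synonym that is also the name of mt-Atp6. Whether forelimb tags in this stretch were set aside because they also align to a nuclear copy was not tested.

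Transfer RNAs were seen mainly in C2C12, where 20 of 22 had a sense tag and 140 tags fell on them in all, 93.3 per kb. The methionine gene mt-Tm led with 23 tags, 333 per kb, and the valine gene mt-Tv, between the ribosomal RNAs, had 18 tags, 261 per kb. The other 20 had from 0 to 13 tags, with mt-Tn and mt-Te at 0. The 22 transfer RNA genes are 59 to 75 nt long and the tags 21 to 38 nt, so densities per kb depend on how tags at their edges were assigned. In forelimb, 6 of 22 had a tag, and there were 0, 1 and 1 tags in WT and 4 and 3 in ΔE2. WT had 178 mitochondrial tags in its 3 libraries, and mt-Tv gave both of its transfer RNA tags, from 1 molecule that the libraries share. The ΔE2 tags came from 6 transfer RNAs, with 2 on the proline gene mt-Tp.

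The plus strand carried almost all mitochondrial tags. It held 33 of 33, 55 of 55 and 90 of 90 tags in WT and 84 of 86 and 91 of 93 in ΔE2. The mean of 100% for WT (SD 0, n = 3) lay above that of ΔE2, 97.8% ± 0.124 (SD, n = 2), the libraries did not overlap, and the exact permutation test gave p = 0.1 (adjusted 0.25), the smallest possible here. With shared molecules left out the difference of ΔE2 from WT went from -2.24 to -3.19 percentage points. The 4 minus-strand tags of ΔE2 fell on the minus-strand transfer RNA genes mt-Tq, mt-Ta and mt-Tp. The 133 distinct WT molecules allow a minus-strand share of up to 2.26% at a count of 0 (3 counts), and the limits in single WT libraries are 9.09%, 5.45% and 3.33%. With 2 minus-strand tags in each ΔE2 library, a difference was not detectable at this depth.

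In C2C12, 1722 of 1799 tags (95.7%) lay on the plus strand. Of the 77 on the minus strand, 42 fell in the 9 genes encoded there, which are mt-Nd6 and 8 transfer RNAs, 30 were antisense to plus-strand genes and 5 lay in no gene. A further 12 plus-strand tags were antisense to minus-strand genes. Antisense tags were thus 42 of 1799 (2.33%, 95% Wilson interval 1.73 to 3.14), 11 of them opposite mt-Nd5. In forelimb 1 tag was antisense, opposite mt-Nd6 in ΔE2. The control region, which holds the promoters and the origin of heavy-strand replication, had 5 of the 6 C2C12 tags in no gene and 0 forelimb tags.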

How the data were processed

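Per the submitters' processing notes, the CLIP reads were aligned with Novoalign (version not given in the sources used) to mm9. Each line of the deposited CLIP files is 1 tag with a strand and a barcode; counting was done here, and C2C12 rows of the same position, strand and barcode (677787 deposited) were counted once. RNA-seq reads were aligned with TopHat 1.3.2, per the submitters' processing notes, and the deposited table gives estimated counts per isoform as group totals, per the file headers; none lies on the mitochondrial chromosome. Genes came from RefSeq GRCm38.p6, a different build from mm9, whose mitochondrial sequence was taken to be the same record: its coordinates served only to assign tags, and strands are textbook knowledge. Tags on nuclear chromosomes overlapping by at least 1 nt on a strand were joined into clusters (191766 clusters with mitochondrial ones included).

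edgeR 4.0.16 in R 4.3.3 was fitted over all features (TMM, quasi-likelihood test, filterByExpr at a minimum of 10 counts, Benjamini-Hochberg adjustment). Shares were tested by exact permutation in Python 3.11.15 with scipy 1.17.1. DESeq2 1.42.0 was an alternative, run without the filter on low counts. The edgeR fit was tested on simulated counts of independent libraries, which cannot show how it acts on libraries that share molecules. WT and ΔE2 CLIP replicates share numbers; the deviations of same-numbered libraries correlated at -0.318, -0.207 and -0.241 over 213 features, so the numbers were not taken as pairs. The plan named 3 against 3 libraries as an alternative, since 2 ΔE2 libraries share most molecules. The members, gene lists and tests were chosen with earlier results of these data known. Named genes were the ribosomal RNAs, the coding genes, the control region and transfer RNAs with at least 5 forelimb sense tags or 1% of C2C12 mitochondrial tags, and the 5 fullest clusters per source; other transfer RNAs named, and the tag-free stretch, were chosen after their values were seen. p-values measure the spread between these libraries, which share molecules.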

Additional observations from a re-analysis of the deposited data

How the results depend on the processing

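Depth was 1 limit: 33 to 93 mitochondrial tags per forelimb library left 2 testable mitochondrial genes. C2C12 had no replicates. The difference in mitochondrial share kept its direction in 12 of 12 alternatives (0.0457 to 0.0732 percentage points), the ribosomal share in 13 of 13 (-4.90 to -2.07) and the plus-strand share in 12 of 12 (-3.19 to -2.15). WT and ΔE2 libraries did not overlap in mitochondrial or plus-strand share, so leaving out a whole library could not turn these 2 signs. With every WT tag on the plus strand, no alternative could turn the plus-strand sign. The mt-Rnr1 share of ribosomal tags, 1.27 percentage points higher in ΔE2, ran from -2.24 to 3.36 with each library left out and was -0.771 with the 6 libraries as labelled. The coding share, -0.389, ran from -1.85 to 1.33 with each library left out and was 0.258 with the 6 libraries. Called ribosomal RNA genes in edgeR, 2 of 2, numbered 0 scaled to all tags (1 at an unadjusted p under 0.05) and 1 scaled to tested features. They numbered 0 with WT replicates 2 and 3 joined (2 unadjusted), where 0 of 239 features were called, and 0 to 2 with each library left out. Without a filter on low counts edgeR called 0 (0 unadjusted). DESeq2, also run without that filter, called 0 (2 unadjusted). Both fits without the filter adjusted over 191728 features, against 276 in the main fit. With shared molecules left out, an alternative chosen after seeing the data like those on shared molecules and on the tag-free stretch, 1 of 1 tested was called. That removal took a larger part of the WT than of the ΔE2 mitochondrial tags. With the replicate number as a block in the fit of 6 libraries, 1 was called (edgeR adjusted p = 0.0726 for mt-Rnr1 and 0.0145 for mt-Rnr2) against 2 without the block, and calls over all features fell from 89 to 65. Called clusters, 2 of 2 tested, numbered 0 of 2 in edgeR under both other scalings (1 at an unadjusted p under 0.05 in each). They numbered 0 without the filter (2 unadjusted) and 0 with DESeq2 (1 unadjusted), where adjustment ran over 191766 clusters. With 1 mitochondrial cluster tested, edgeR called 0 (1 unadjusted) with the WT libraries joined, where 0 of 238 clusters of any kind were called. It also called 0 (1 unadjusted) with tags collapsed by 5′ end and with the replicate block (edgeR adjusted p = 0.0606 for the 5′ cluster). The 1 tested was called with the 6 libraries as labelled and with tags collapsed by position. They numbered 0 with shared molecules left out (0 tested) and 0 to 3 with each library left out (1 to 3 tested). In C2C12 the ribosomal share was 73.4% with rows as deposited and 77.4% without the tag-free stretch, and the coding share 16.7% and 13.1%. With forelimb tags of 26 to 30 nt the WT shares were 79.5% ribosomal, 20.5% coding and 0% transfer RNA, and the ΔE2 shares 0% coding and 10.0% transfer RNA. For each of these the cause was not tested, except that fewer tags or libraries were tested where some were left out.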

Other observations

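The reads behind the tags were not counted in any comparison above, since reads of 1 molecule are copies. Read numbers served in 1 alternative, which gave each shared molecule to the library with most reads of it. Mitochondrial tags took 0.245%, 0.0589% and 0.0358% of WT reads, library by library, and 0.298% and 0.410% of ΔE2 reads. In WT replicate 1 a single molecule of mt-Rnr2, MT 1757 to 1791, held 5548 of 6209 mitochondrial reads, or 89.4%. The tag with most reads in the joined ΔE2 library had the same position, with 24691 reads or 16.7%. Outside ribosomal RNA, a single ΔE2 molecule of mt-Nd4 at MT 11431 to 11465 had 8986 reads, while 10 of the 31 distinct forelimb molecules there had 1 read. The median number of reads per mitochondrial tag was 2 or 3 in each library.

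Tags of exactly 35 nt made up 45.5%, 54.5% and 58.9% of WT mitochondrial tags, library by library, and 69.8% and 60.2% of those of ΔE2. Among all tags of the same libraries the shares were 50.9%, 42.8%, 41.7%, 47.8% and 57.0%.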
